A study of Mus musculus with 6 samples.

Results

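Neurexins, neuroligins and leucine-rich repeat transmembrane proteins (LRRTMs) are cell adhesion proteins that meet across the synaptic cleft. Their genes were followed in messenger RNA of visual cortex from C57BL/6J males aged 14 postnatal days, with 3 libraries from *Chrdl1* knockouts (KO) and 3 from wild types (WT). The members were chosen by gene symbol and number 9 of the 24453 genes in the deposited table: the neurexins *Nrxn2* and *Nrxn3*, the neuroligins *Nlgn1*, *Nlgn2* and *Nlgn3*, and *Lrrtm1*, *Lrrtm2*, *Lrrtm3* and *Lrrtm4*. Astrocytes secrete the product of *Chrdl1*, chordin-like 1, which binds bone morphogenetic proteins and blocks them. Both genotypes shared strain, sex, age and a perfusion with paraformaldehyde ahead of dissection. The sources used here state neither how the knockout allele was made nor whether every library is its own animal, so p-values cover only the spread from library to library, which may be technical. Levels are FPKM, fragments divided by the exon length of the gene's transcript and by library size.

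Neurexins sit mainly in the presynaptic membrane and bind several kinds of postsynaptic partner. Neuroligins and LRRTMs are postsynaptic partners that compete for overlapping sites on neurexins and carry tails that bind scaffold proteins. Neuroligin 1 is found mainly at excitatory synapses, neuroligin 2 mainly at inhibitory synapses and neuroligin 3 at both, while LRRTMs act at excitatory synapses. Each neurexin gene gives a long alpha protein and a shorter beta protein from separate promoters, and a cassette exon at splice site 4 changes which partners a neurexin can bind.

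The table gives 1 value per gene, counted over the exons of 1 named transcript, so splice forms cannot be told apart in it. The row of *Nrxn3* is the short transcript NM_001252074 on the plus strand of chromosome 12, from 89812483 to 90334933 in mm10. The long coding transcripts NM_172544 and NM_001198587 start 859.1 and 1018.0 kb upstream of it in GENCODE M21 and share 3′ exons with it. M21 gives NM_001252074 an exon length of 3654 bases, against 5135 in the row, so the share of the long forms that the row covers is not given here. The *Nrxn3* value thus mixes fragments from long and short forms over shared 3′ exons and leaves out the exons that only the long forms have. *Nrxn2*, on chromosome 19 from 6418738 to 6533217 on the plus strand, is measured instead over the alpha transcript NM_001205234, with 23 exons. For both rows the splice site 4 exon is part of the M21 model of the named transcript, although other annotated transcripts skip it. That of *Nrxn3* is shown here because its inclusion, which the table cannot resolve, sets the binding of neurexin 3 to neuroligins and LRRTMs. It is 90 bases long, coding and on the plus strand, at chr12:90199147-90199236, and is printed in lower case throughout, with no base marked.
Nrxn3 splice site 4 exon: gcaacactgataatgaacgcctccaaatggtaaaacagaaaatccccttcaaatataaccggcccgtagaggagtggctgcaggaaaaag

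The neuroligins carry cassette exons of their own at splice site A, in the extracellular domain. Here the M21 models of the rows' transcripts differ. The model of *Nlgn1* (NM_001163387, chromosome 3, 25431841 to 26153307, minus strand) lacks its 60-base exon at chr3:25920178-25920237. The model of *Nlgn2* (NM_198862, chromosome 11, 69823123 to 69834849, minus strand) holds its 51-base exon at chr11:69830563-69830613. The model of *Nlgn3* (NM_172932, chromosome X, 101299179 to 101321350, plus strand) holds its 60-base exon at chrX:101307075-101307134 and lacks another at chrX:101303072-101303131. The exons are printed in the sense direction, and "in the row" below refers to the M21 model of the row's transcript. M21 gives the *Nlgn1* transcript an exon length of 3013 bases, against 4595 in the row. Whether the *Nlgn1* row counts this exon is therefore not known. The lengths are 5003 and 4993 bases for *Nlgn2*. For *Nlgn3* 3852 model bases lie within the coordinates of the row, against 3874 in the row. Capitals mark the 43 positions (71.7%) at which the *Nlgn1* and *Nlgn3* exons have the same base, and the *Nlgn2* exon, of another length, has none marked.
Nlgn1 splice site A exon, not in the row: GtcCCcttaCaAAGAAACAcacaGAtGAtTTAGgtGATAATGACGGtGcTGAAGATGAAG
Nlgn2 splice site A exon, in the row: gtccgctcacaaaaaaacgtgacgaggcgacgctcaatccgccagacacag
Nlgn3 splice site A exon, in the row: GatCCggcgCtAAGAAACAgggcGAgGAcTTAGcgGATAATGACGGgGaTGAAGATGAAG

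The LRRTM genes are nested in or beside other genes. *Lrrtm1* (chromosome 6, 77242717 to 77245517, plus strand) lies inside *Ctnna2*, *Lrrtm2* (chromosome 18, 35209006 to 35215024, minus strand) inside *Ctnna1*, and *Lrrtm3* (chromosome 10, 63928497 to 64090255, minus strand) inside *Ctnna3*. These 3 hosts encode alpha-catenins, which link cadherins to actin, and each runs on the opposite strand. Annotated exons of the host cover 0 bases of the *Lrrtm1* and *Lrrtm3* models and 95 of the 5670 bases of the *Lrrtm2* model, counting M21 exons within the coordinates of each row. *Lrrtm4* (chromosome 6, 80018877 to 80810143, plus strand) shares 1543 of 3033 such bases with the antisense gene *Gm4409*, and *Nrxn2* shares 207 of 6660 with the antisense gene *Gm14964*. *Nlgn3* shares 3763 of 3852 with the same-strand transcript *Gm21986*, whose reads cannot be told apart from its own. The kit was stranded, but the recorded counting command sets no option for it, so antisense reads in these stretches cannot be told apart from reads of the members.

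Estimated depth was 22.7 to 31.9 megareads in the KO libraries and 27.5 to 38.2 in the WT libraries, and the members held between 1041 and 16619 estimated reads per library. *Chrdl1* itself stood at 0.172, 0.190 and 0.120 FPKM in KO replicates 1, 2 and 3, against 3.65, 3.57 and 3.09 in WT replicates 1, 2 and 3 (limma adjusted p = 0.000489). Libraries are numbered by the middle number of their titles, and a KO and a WT library with the same title number form a pair. Markers of cortical excitatory neurons were all detected, with *Slc17a7*, the main cortical vesicular glutamate transporter gene, at 565 to 689 FPKM in KO and 568 to 674 FPKM in WT. First markers of the other cortical classes stood at 64.5 to 81.0 FPKM in KO and 70.9 to 89.4 FPKM in WT for *Gad1* (interneurons), 21.8 to 25.5 FPKM in KO and 20.02 to 23.8 FPKM in WT for *Aldh1l1* (astrocytes), 14.0 to 14.9 FPKM in KO and 13.9 to 15.1 FPKM in WT for *Cx3cr1* (microglia), and 29.2 to 36.9 FPKM in KO and 27.1 to 35.3 FPKM in WT for *Cldn5* (endothelium). The summed microglial list ran from 102 to 105 FPKM in KO and from 105 to 108 FPKM in WT, with values that met at the edge. The summed level of 10 striatal projection neuron markers, which visual cortex should hold little of, was 180, 362 and 182 FPKM in KO replicates 1, 2 and 3 and 375, 349 and 314 FPKM in WT replicates 1, 2 and 3. All 10 had log2 fold changes below 0 (median -0.58), and none of them was at 0 FPKM. *Ppp1r1b*, the first of them, stood at 31.8, 101 and 35.9 FPKM in KO and 103, 91.7 and 81.1 FPKM in WT. The 10 mature oligodendrocyte markers were all below 0 too (sums of 1444 to 2811 FPKM in KO and 1826 to 3075 FPKM in WT), and 6 of 7 meningeal fibroblast markers were above 0 (52.9 to 64.7 FPKM in KO and 45.7 to 51.4 FPKM in WT). The first of these, *Mbp* and *Col1a1*, ranged over 665 to 1268 and 3.34 to 5.33 FPKM in KO and over 890 to 1387 and 3.53 to 3.70 FPKM in WT. In such bulk samples, fewer cells of a type and less RNA per cell cannot be told apart.

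All 9 genes were expressed well above the limit of 1 FPKM for testing. The highest was *Nrxn2*, a presynaptic receptor gene, at 65.2 ± 5.07 FPKM (SD over all 6 libraries), a level above 92.7% of the 12863 tested genes. *Nlgn2*, the neuroligin of inhibitory synapses, followed at 59.6 ± 3.81 FPKM. These 2 changed places in 1 of 6 libraries and their ranges overlapped. *Lrrtm1*, at 37.0 ± 3.02 FPKM, stood clear of both neighbours, below *Nlgn2* and above *Nrxn3* in every library with no overlap of ranges. *Nrxn3* averaged 29.1 ± 4.77 FPKM, *Nlgn3* 21.5 ± 2.29 FPKM and *Nlgn1*, the neuroligin of excitatory synapses, 18.7 ± 2.12 FPKM. Ranges of these neighbours overlapped, although *Nlgn3* was above *Nlgn1* in 6 of 6 libraries.

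At the low end, *Lrrtm4* (16.6 ± 0.919 FPKM), *Lrrtm3* (16.3 ± 0.9998 FPKM) and *Lrrtm2* (15.5 ± 2.31 FPKM) could not be ordered. *Lrrtm4* was above *Lrrtm3* in 2 of 6 libraries, and *Lrrtm3* above *Lrrtm2* in 3 of 6. Even *Lrrtm2*, the lowest, exceeded 65.0% of tested genes. These levels are per length of the row's own transcript, so a gene whose reads come largely from other transcripts would be misplaced in this order. Spread between libraries differed too, with a coefficient of variation of 16.4% for *Nrxn3* and 14.9% for *Lrrtm2*, against 5.54% for *Lrrtm4*. Counting error of the reads was at most 3.10% for any member in any library.

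**Figure D1:**
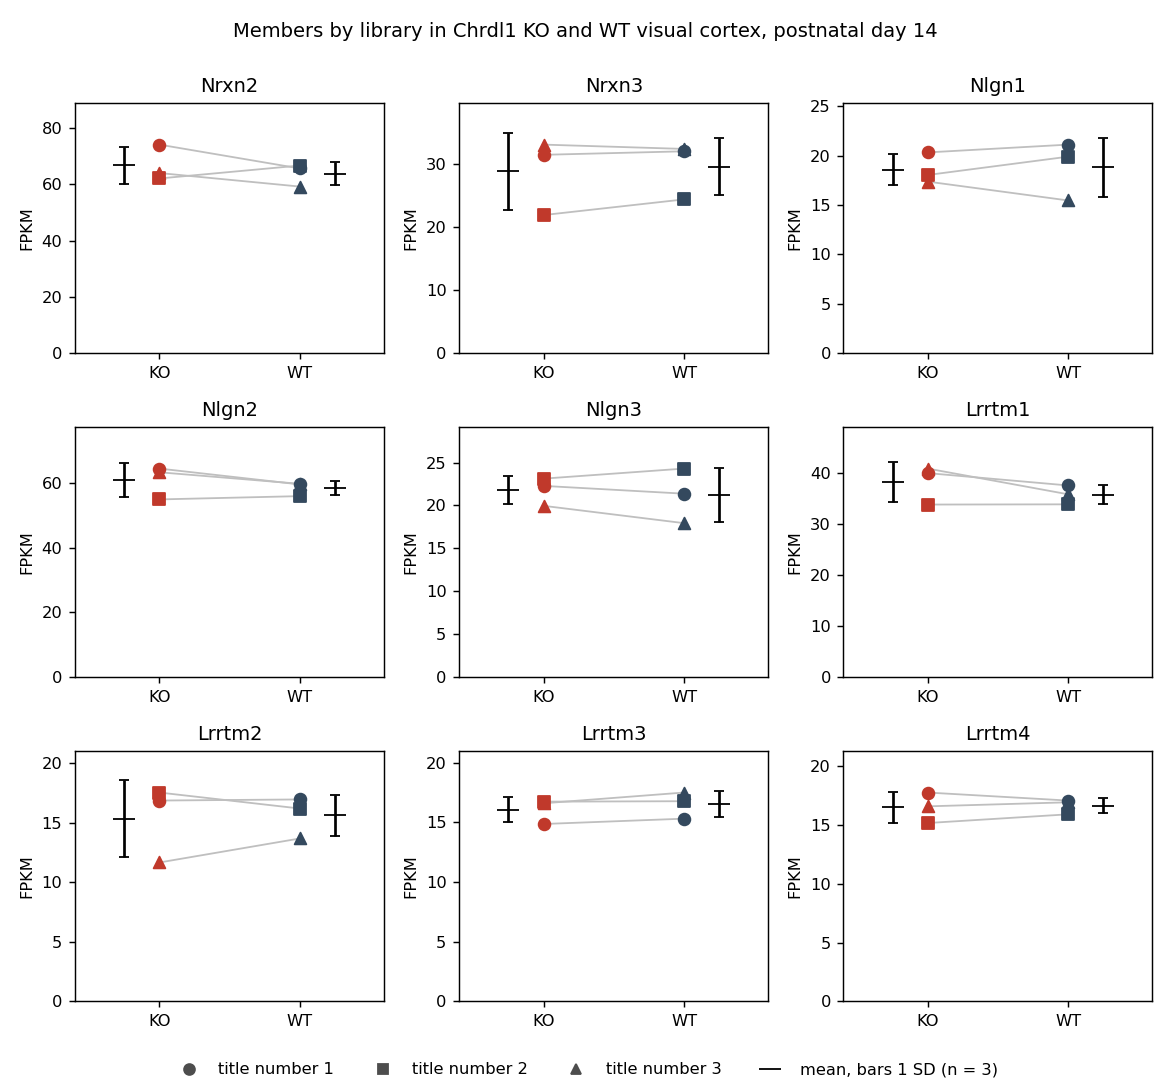
FPKM of each of the 9 genes (y axis, from 0) in the KO and WT libraries (x axis), with marker shapes for title numbers 1, 2 and 3, grey lines joining libraries of the same number, and black bars for the mean and 1 SD (n = 3 per genotype). KO and WT points overlap for every gene, and both *Nrxn3* squares (title number 2, 21.9 FPKM in KO and 24.3 FPKM in WT) and both *Lrrtm2* triangles (title number 3, 11.6 FPKM in KO and 13.7 FPKM in WT) lie below the other libraries.

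The comparison of KO with WT asks whether loss of the astrocyte protein goes with other levels of these neuronal adhesion genes. None of the 9 passed the test in limma at an adjusted p under 0.05, against 0.00777% of all tested genes, which is *Chrdl1* alone. At an unadjusted p under 0.05 the count was also 0 of 9, where 0.63% of tested genes fell under it. Limma's voom method on recovered reads called 0 of 9 as well. KO and WT values overlapped for all 9 members, while they were separate for 2.95% of tested genes. Of the 9 log2 fold changes 4 were above 0 and 5 below, with a median of -0.01 against 0.01 over all tested genes, and the median absolute change was 0.0450 among members and 0.0384 over all tested genes.

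Among the neurexins, *Nrxn2* measured 74.0, 62.0 and 63.9 FPKM in KO replicates 1, 2 and 3, against 65.6, 66.6 and 59.1 FPKM in WT replicates 1, 2 and 3. KO held the single highest value, and the other KO libraries lay within the WT range. The log2 fold change was 0.06 with a 95% interval of -0.15 to 0.27 (limma adjusted p = 0.9999). *Nrxn3* measured 31.4, 21.9 and 33.0 FPKM in KO, against 31.9, 24.3 and 32.3 FPKM in WT. Its low library in each genotype was the one numbered 2, and the other 4 lay between 31.4 and 33.0 FPKM. The log2 fold change was -0.05 (interval -0.44 to 0.35, limma adjusted p = 0.9999), and it was 0.13 without KO replicate 2, the lowest library. Adjusted for the striatal marker mean it was -0.35 (limma unadjusted p = 0.0459, adjusted p = 0.999). That covariate largely followed genotype, with striatal sums of 180, 362 and 182 FPKM in KO and 314 to 375 FPKM in WT. KO replicate 2 thus weighs heavily in any fit with this covariate.

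KO and WT overlapped for the neuroligins as well. *Nlgn1* measured 20.3, 18.0 and 17.4 FPKM in KO, against 21.1, 19.9 and 15.5 FPKM in WT, so that the WT libraries held both the highest and the lowest value. Its log2 fold change was -0.01 (interval -0.29 to 0.27). *Nlgn2* measured 64.4, 54.9 and 63.3 FPKM in KO, against 59.5, 55.9 and 59.7 FPKM in WT. KO was above WT in pairs 1 and 3 and below it in pair 2, with a log2 fold change of 0.06 (interval -0.14 to 0.25). *Nlgn3* lies on the X chromosome, as *Chrdl1* does. It measured 22.3, 23.1 and 19.96 FPKM in KO, against 21.4, 24.3 and 17.9 FPKM in WT, and again the WT libraries spanned the KO values (log2 fold change 0.04, interval -0.22 to 0.31).

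*Lrrtm1*, whose protein binds neurexins and recruits excitatory presynaptic terminals, had the largest difference of the 9 in the fit of all 6 libraries. It measured 39.996, 33.8 and 40.9 FPKM in KO, against 37.6, 33.9 and 35.8 FPKM in WT. KO libraries 1 and 3 lay above every WT library and KO library 2 below every one. The log2 fold change was 0.09 (interval -0.12 to 0.30, limma unadjusted p = 0.348, adjusted p = 0.9999). Leaving out KO replicate 2 gave 0.17, and adjusting for the striatal marker mean gave -0.04. *Lrrtm2*, which helps to hold AMPA receptors at synapses, measured 16.8, 17.5 and 11.6 FPKM in KO, against 16.9, 16.2 and 13.7 FPKM in WT. KO held both the highest and the lowest value, and the log2 fold change was -0.04 (interval -0.39 to 0.32), or 0.14 without KO replicate 3.

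*Lrrtm3* was the member with 1 direction in all pairs, at 14.9, 16.7 and 16.6 FPKM in KO, against 15.3, 16.8 and 17.5 FPKM in WT. KO was lower in 3 of 3 pairs, as it was for 9.59% of tested genes, and 21.9% had 1 direction in all pairs. The difference was slight in pair 2, and the ranges overlapped (log2 fold change -0.04, interval -0.23 to 0.15). *Lrrtm4*, whose protein binds heparan sulfate proteoglycans such as glypicans, measured 17.8, 15.2 and 16.6 FPKM in KO, against 17.1, 15.9 and 16.9 FPKM in WT (log2 fold change -0.01, interval -0.20 to 0.17). The intervals of all 9 genes lay within 1.5-fold of no change, the widest, of *Nrxn3*, reaching 1.36-fold. The intervals are not adjusted over the tested genes, so they do not give the smallest difference that the test could call. With 3 libraries per genotype, differences of this size could have been missed, as could smaller ones and also larger ones.

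**Figure D2:**
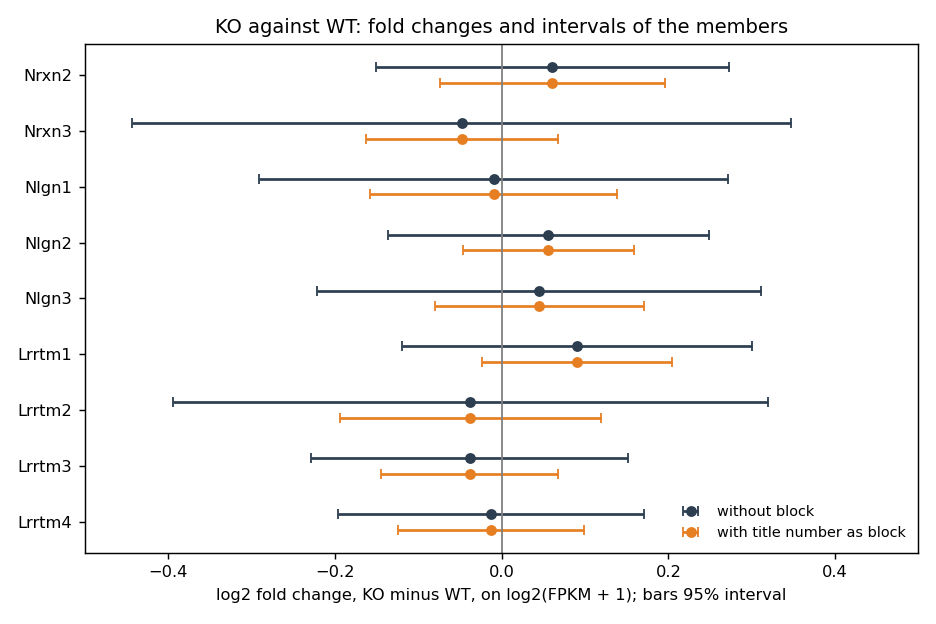
Log2 fold change of KO minus WT on the log2(FPKM + 1) scale (x axis) for the 9 genes (y axis), with 95% intervals from limma without a block (dark) and with the title number as a block (orange). All intervals of both fits include 0, and the blocked ones lie between -0.19 and 0.20.

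Composition within a family does not depend on how a library is scaled. *Nlgn2* made up 60.1% ± 2.87 of the summed neuroligin FPKM in KO and 59.5% ± 4.24 in WT (SD, n = 3). *Nlgn1* took 18.3% ± 0.940 in KO and 19.1% ± 2.16 in WT, and *Nlgn3* 21.6% ± 2.22 in KO and 21.5% ± 2.55 in WT. The ratio of *Nlgn1* to *Nlgn2*, genes of the excitatory and inhibitory neuroligin, was 0.315, 0.328 and 0.274 in KO replicates 1, 2 and 3 and 0.355, 0.356 and 0.259 in WT. Title number 3 had the lowest ratio in both genotypes, and KO was higher than WT in 1 of 3 pairs.

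The LRRTM sum was 89.5, 83.3 and 85.7 FPKM in KO and 86.9, 82.8 and 84.0 FPKM in WT. *Lrrtm1* held 44.3% ± 3.54 of it in KO and 42.3% ± 1.198 in WT (SD, n = 3), more than any other LRRTM in each library. The share of *Lrrtm2* was 13.6% in KO replicate 3 and 16.3% in WT replicate 3, and between 18.8% and 21.035% in the other 4 libraries. Between the neurexins, the ratio of *Nrxn3* to *Nrxn2* was 0.424, 0.353 and 0.516 in KO and 0.487, 0.365 and 0.547 in WT. KO was lower in 3 of 3 pairs, but the KO and WT values overlapped, and the spread between title numbers was wider than the difference within any pair. No test was made on these shares and ratios.

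**Figure D3:**
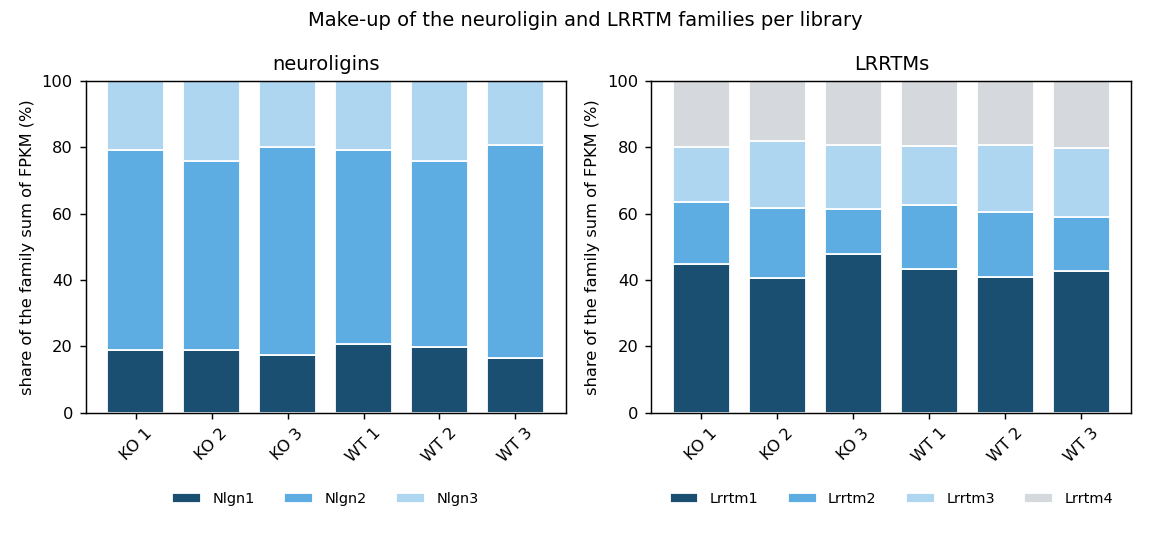
Share of the summed FPKM of the neuroligins (left) and the LRRTMs (right) held by each gene (y axis, percent) in the 3 KO and 3 WT libraries (x axis). *Nlgn2* fills 55.9% to 64.1% of its family and *Lrrtm1* 40.6% to 47.7% of its own in every library, and the narrowest *Lrrtm2* band, 13.6%, is in KO replicate 3.

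Differences among these genes also ran between title numbers, with a median range of number means of 0.19 on the log2 scale, against 0.20 over all tested genes. This range runs over 3 means of 2 libraries each, so its size is not comparable with the KO and WT differences. In a limma F test of the number, with genotype in the fit and chosen after the data were seen, 4 of 9 members (44.4%) passed at an adjusted p under 0.05, against 30.6% of all tested genes. At an unadjusted p under 0.05 there were 7 of 9, where 46.3% of tested genes fell under it. *Nrxn3* was the clearest. The libraries numbered 2 averaged 23.1 FPKM, 70.7% of the 32.7 FPKM in those numbered 3, and number 1 averaged 31.7 FPKM (n = 2 libraries each, limma adjusted p = 0.00444). It passed with each library left out in turn (limma adjusted p of 0.000412 to 0.0203). The range of its number means, 0.48 on the log2 scale, was wider than in 92.7% of tested genes.

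*Lrrtm2* differed in another way, at 16.9, 16.8 and 12.7 FPKM for numbers 1, 2 and 3 (limma adjusted p = 0.0176). *Nlgn3* stood at 21.8, 23.7 and 18.9 FPKM (adjusted p = 0.0275) and *Nlgn1* at 20.7, 19.0 and 16.4 FPKM (adjusted p = 0.0421), both lowest in number 3. These 3 calls depended on single libraries: *Nlgn1* and *Nlgn3* lost theirs without KO replicate 1, WT replicate 1 or WT replicate 3, and *Lrrtm2* without KO replicate 1, WT replicate 1 or KO replicate 3. In those fits, in that order, the limma adjusted p was 0.113, 0.155 and 0.202 for *Nlgn1*, 0.0653, 0.0657 and 0.144 for *Nlgn3*, and 0.0580, 0.0551 and 0.0857 for *Lrrtm2*. Members of 1 family were lowest in different numbers. *Lrrtm1* (38.8, 33.9 and 38.4 FPKM) and *Lrrtm4* (17.4, 15.5 and 16.8 FPKM) were lowest in number 2 and *Lrrtm3* (15.1, 16.8 and 17.1 FPKM) in number 1, without passing. Without WT replicate 2, *Lrrtm1* and *Nrxn2* passed (limma adjusted p of 0.0424 and 0.0245), and *Nrxn2* passed without KO replicate 2 (0.0346).

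For 8 of 9 members both libraries of a title number lay beyond the other 4, as for 73.8% of tested genes. Number 2 stood apart in this way for 5 members (44.4% of tested genes), number 3 for 4 (38.1%) and number 1 for 3 (22.6%). Both libraries of number 2 lay below the other 4 for 4 members, *Nrxn3*, *Nlgn2*, *Lrrtm1* and *Lrrtm4*, as they did for 25% of tested genes. Both libraries of number 3 lay below the others for *Nlgn1*, *Nlgn3* and *Lrrtm2*, as for 20.4% of tested genes. The sources used here do not state what the title number stands for. Other measures moved with it. Reads in genes made up 84.9% and 84.8% of the total in KO and WT libraries numbered 2 and 86.2% to 87.0% in the others. All 10 mature oligodendrocyte markers passed the F test of the number, with sums of 1444 and 1826 FPKM in KO and WT libraries numbered 1 and 2201 to 3075 FPKM in the others. Of the other marker lists, 6 of 10 interneuron, 4 of 9 excitatory neuron, 4 of 7 astrocyte and 2 of 6 microglial markers passed. So did 2 of 6 endothelial, 1 of 7 meningeal, 1 of 10 striatal and 2 of 4 tested hippocampal markers. Of all tested genes 30.6% passed, and several of these lists lay near or below that share. Interneuron markers went different ways, with *Sst* and *Npy* highest and *Gad2* lowest in number 3. Their part in the members' differences was not tested.

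**Figure D4:**
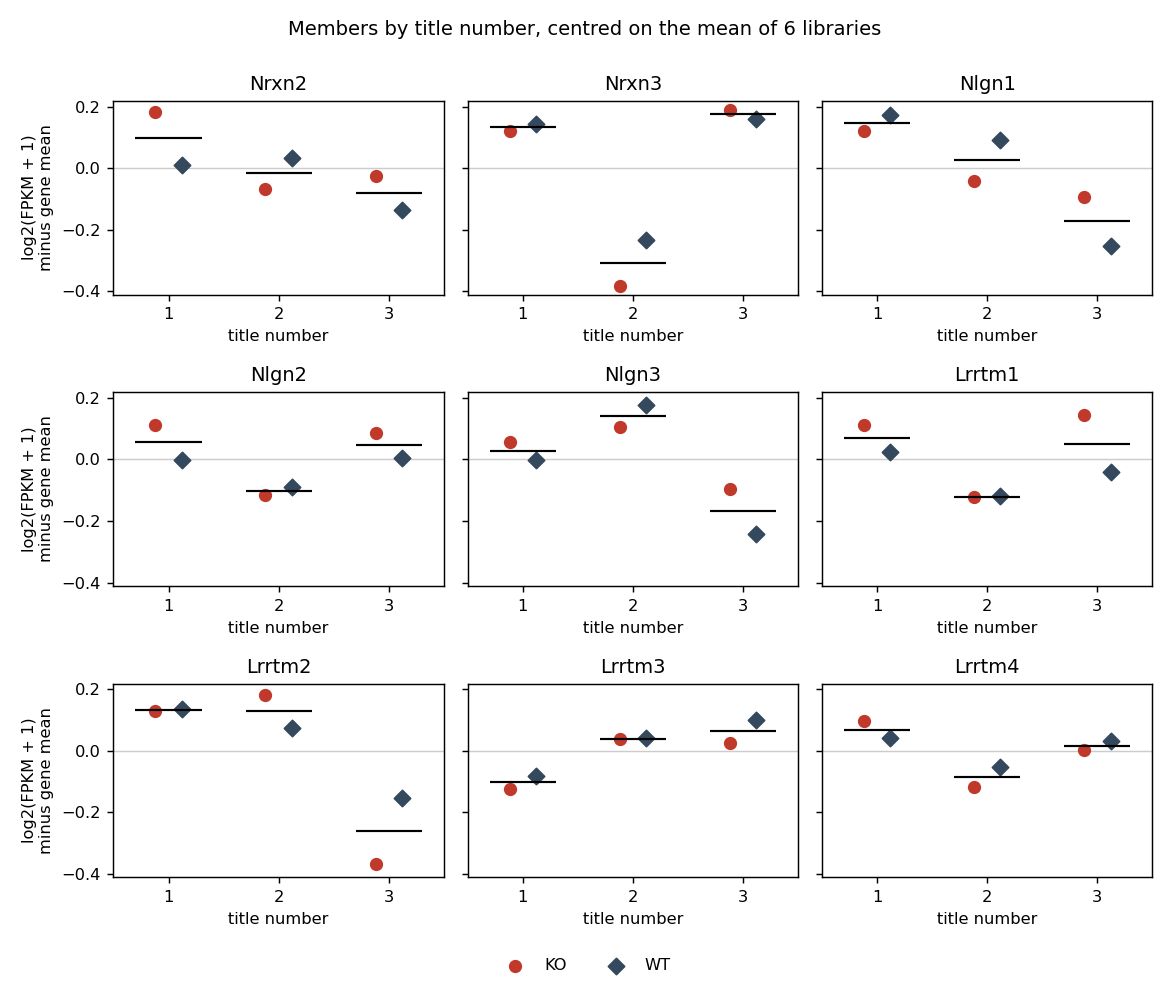
Log2(FPKM + 1) of each gene minus its mean over 6 libraries (y axis) by title number (x axis), with KO libraries as red circles, WT libraries as dark diamonds and black lines for the mean of both. Both *Nrxn3* points of number 2 lie below all its other points, as do both *Lrrtm2* points of number 3. KO and WT still differ within these numbers, with KO minus WT at -0.15 for *Nrxn3* in number 2 and -0.21 for *Lrrtm2* in number 3.

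*Nrxn3* had the widest range of the 9 over the libraries, 0.57 on the log2(FPKM + 1) scale. The 2 tested genes with the most similar profile, by the root mean square difference of mean-centred values over 6 libraries, were *Ramp2* and *Fam166b*, with differences of 0.037 and 0.047. *Ramp2*, a gene for a subunit of the adrenomedullin receptor, measured 21.1, 14.9 and 22.3 FPKM in KO replicates 1, 2 and 3 and 20.8, 17.2 and 22.3 FPKM in WT. Both libraries numbered 2 were its lowest, as for *Nrxn3*. *Fam166b* was a low gene, at 1.29, 0.559 and 1.51 FPKM in KO and 1.31, 0.691 and 1.28 FPKM in WT, again lowest in the libraries numbered 2.

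Genes for known partners of these proteins were read from 8 lists of 94 genes, of which 88 were tested. None passed in KO against WT by limma, where 0.00777% of all tested genes did. At an unadjusted p under 0.05 there were 0 of 88, and 4 with the title number as a block, where 3.91% of tested genes fell under it. These 4 were *Cbln1*, *Adgrl2*, *Tenm2* and *Cadm1*, and *Adgrl2*, a latrophilin gene, is named after its value was seen. Over the 88 genes 53 log2 fold changes were above 0 and 35 below, with a median of 0.0119, against 0.00539 over all tested genes.

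Of 16 tested neurexin ligand genes, 0 passed and the median log2 fold change was 0.00. *Cbln1*, which encodes a cerebellin that bridges neurexins to glutamate delta receptors, measured 15.2, 10.8 and 12.1 FPKM in KO and 12.3, 9.81 and 11.3 FPKM in WT. KO was higher in 3 of 3 pairs, as for 12.3% of tested genes, and 21.9% had 1 direction in all pairs. The genotypes overlapped, with a log2 fold change of 0.17 (limma adjusted p = 0.9999). *C1ql2*, a C1q-like gene whose protein binds neurexin 3, stood at 5.0 FPKM in KO replicate 3 and between 1.86 and 2.91 FPKM in the other 5 libraries (log2 fold change 0.36). It is also a hippocampal marker, and the summed level of 6 such markers ran from 53.4 to 65.4 FPKM in KO and from 49.3 to 62.4 FPKM in WT, highest in KO replicate 3.

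Of 6 genes for neuroligin inhibitors and inhibitory synapse partners, 0 passed (median log2 fold change 0.00). *Lhfpl4*, which links neuroligin 2 to GABA-A receptors, averaged 38.3 ± 3.54 FPKM in KO and 36.1 ± 1.43 FPKM in WT, and *Mdga1*, whose protein blocks neuroligin binding to neurexins, 6.09 ± 1.28 FPKM in KO and 5.59 ± 0.292 FPKM in WT (SD, n = 3 each). Of 13 genes for PDZ scaffolds that hold the tails, 0 passed (median 0.00), with *Apba1* and *Apba2*, genes for Mint adaptors, at log2 fold changes of 0.09 and 0.05. Of 9 tested glypican and syndecan genes, 0 passed (median 0.01). *Gpc4*, a glypican gene whose product binds the LRRTM4 protein, averaged 6.47 ± 1.29 FPKM in KO and 5.89 ± 0.492 FPKM in WT, and *Gpc2* had a log2 fold change of -0.10.

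The STAR splicing factors *Khdrbs1*, *Khdrbs2* and *Khdrbs3* act on the splice site 4 exons of neurexins, such as the *Nrxn3* exon printed above. They averaged 20.3 ± 1.34, 2.68 ± 0.199 and 79.8 ± 5.19 FPKM in KO and 20.9 ± 1.35, 2.66 ± 0.606 and 77.4 ± 5.79 FPKM in WT (SD, n = 3 each), and 0 of 3 passed. Of 6 tested contactin-associated protein genes, relatives of the neurexins, 0 passed (median log2 fold change 0.00), with *Cntnap4* at 0.12 and *Cntnap1* at 0.06. Of 33 other trans-synaptic adhesion genes, 0 passed (median 0.02, against 0.00539 over all tested genes, 26 above 0). Their list summed to 1318, 1182 and 1257 FPKM in KO replicates 1, 2 and 3 and 1225, 1220 and 1207 FPKM in WT, so KO replicate 2 was below every WT library. *Tenm2*, a teneurin gene, measured 15.5, 10.2 and 14.2 FPKM in KO and 11.2, 10.4 and 10.6 FPKM in WT (log2 fold change 0.26, limma adjusted p = 0.9999), and *Cadm1*, a SynCAM gene, had a log2 fold change of 0.13. KO replicate 2 was below every WT library for *Tenm2* and the other KO libraries above.

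The alpha-catenin hosts of the LRRTM genes differed between genotypes by less than the spread of the libraries. *Ctnna2* averaged 49.0 ± 3.12 FPKM in KO and 50.2 ± 2.03 FPKM in WT, and *Ctnna1* 13.8 ± 0.698 FPKM in KO and 13.7 ± 0.532 FPKM in WT (SD, n = 3 each), with log2 fold changes of -0.03 and 0.00. *Ctnna3* was below the limit for testing, at 0.201 to 0.328 FPKM in KO and 0.185 to 0.296 FPKM in WT, far under the *Lrrtm3* gene that it surrounds.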

How the data were processed

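The authors deposited 1 table of FPKM values. Per the file headers, HOMER counted reads over exons on mm10, condensed transcripts to 1 row per gene and named 12 libraries. Columns of 6 are present, and the remaining libraries are not analysed here. The submitters' processing notes list FastQC, HOMER 4.8.3 and STAR 2.4.0k. FPKM allows only relative comparison.

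Totals were estimated from read steps in the FPKM values: 100% of 4897 to 7147 values checked per library were whole within 0.1 read. Whole reads were not checked in genes as long as most members. Counting error is from reads alone.

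KO and WT were compared by limma 3.58.1 under R 4.3.3 (intensity trend, 2-sided) on log2(FPKM + 1) for the 12863 genes averaging at least 1 FPKM, with Benjamini-Hochberg adjustment over all of them. That scale understates changes of low genes. Fold changes are KO minus WT. The procedure was tested on simulated data. Title numbers pair the libraries: deviations from group means correlated at 0.43, 0.71 and 0.67 for numbers 1, 2 and 3. No duplicate libraries were found (chi-square per degree of freedom at least 2.80). The F test of the title number used the model with genotype and number, and was chosen after the data were seen. Exons came from GENCODE M21 (GRCm38, the same build). Members and lists were chosen with earlier results of these data known. Named genes are the members, *Chrdl1*, the 2 genes of each partner list with the smallest unadjusted p (all 3 for catenins and splicing factors), the first marker of each marker list, and the 3 genes most like the widest-ranging member, of which 1 is not reported here. Python 3.11.15 with pandas 2.3.3 and matplotlib 3.10.9 was also used.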

Additional observations from a re-analysis of the deposited data

How the results depend on the processing

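No member was called in KO against WT under any of 18 alternatives (lowest limma adjusted p 0.998). With the title number as a replicate block, 0 members and 1 gene were called, the same counts as without it, so the block changed no call, and 503 genes had an unadjusted p under 0.05 with it, against 81 without. The count of called genes was 2 with a pseudocount of 0.1 or 0.01, 6 with no filter on low values, 0 at a mean of 5 FPKM or more, which removes *Chrdl1*, and 2 with voom on recovered reads and the replicate block. With single libraries or pairs left out it ran from 0 (without pair 1 or pair 2) to 4 (without KO replicate 2), and the members' median from -0.0160 to 0.0555.

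Directions were not stable for changes this small: 25 of 162 member values changed sign. With the striatal markers as a covariate *Nlgn1* was at 0.0371, *Nlgn2* at -0.0582, *Lrrtm1* at -0.0365 and *Lrrtm2* at 0.19, and the cause was not tested. With single libraries or pairs left out, the log2 fold change ran from -0.0160 to 0.14 for *Nrxn2*, -0.18 to 0.13 for *Nrxn3*, -0.14 to 0.0752 for *Nlgn1*, -0.0646 to 0.14 for *Nlgn3*, -0.14 to 0.14 for *Lrrtm2*, -0.0894 to 0.0134 for *Lrrtm3* and -0.0644 to 0.0430 for *Lrrtm4*, and stayed above 0 for *Nlgn2* and *Lrrtm1*. Rescaling by median of ratios set the median of all genes at -0.00157, against 0.00539 as deposited. For the title number, the alternatives were chosen after seeing the data. With 1 library left out, 2042 genes (without WT replicate 1; 2097 without KO replicate 1) to 3888 genes and 1 to 6 members were called, 1 without KO or WT replicate 1 and 2 without WT replicate 3, and under rescaling *Nlgn1* was not (limma adjusted p = 0.0501).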
